A study of Mus musculus with 81 samples.

Results

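F4/80high macrophages sorted from embryonic mouse kidney at E14 were compared between Irf8 knockout and wild-type embryos. The comparison held 5 of the 80 samples of the study, 3 from Irf8 knockout and 2 from wild-type embryos. The samples were taken by their labels, with earlier results of these data known. The other samples were macrophages and progenitors of brain, liver, kidney, skin and yolk sac, in 27 groups in all, of which 3 further knockout and wild-type pairs (3 samples against 3 in each) are used here, namely F4/80high macrophages of the adult kidney at 6 weeks, CD11bhigh macrophages of the E14 kidney and E14 microglia. Kidney tissue was digested with collagenase, cells were sorted by flow cytometry, RNA was isolated with PicoPure columns and amplified by the Ovation PicoSL WTA V2 kit, labelled with the Encore Biotin Module and hybridised to Affymetrix arrays. Genotypes are given as wildtype and Irf8 knockout, and the sources used here do not state the allele, the strain or the number of embryos behind a sample.

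Irf8 belongs to the interferon regulatory factors, a family of transcription factors, and acts in blood-forming and immune cells. It binds DNA weakly alone and is best known as a partner of PU.1 at composite elements that join an ETS site to an interferon regulatory factor site, and as a binder of interferon-stimulated response elements. It is known for its need in monocyte, dendritic cell and microglia development, and loss of Irf8 in mice is known to raise the output of granulocytes. F4/80, the product of Adgre1, is a surface receptor of tissue macrophages, and in the fetal kidney a bright F4/80 signal marks macrophages that descend in large part from yolk sac precursors, whereas cells with high CD11b (Itgam) and less F4/80 include monocyte-like cells.

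Values are RMA signals on a log2 scale, so that a change of 1 is a change by a factor of 2. Of the genes on the array, 17076 were bright enough to be tested, and a gene was called when the limma adjusted p was below 0.05 (± values after a change are standard errors of that fit, which takes its spread from all 80 samples). The medians of the 5 arrays lay between 2.94 and 2.98, close to the level of unexpressed genes. How many arrays there are limits the precision. The labels do not say which samples came from separate litters. The p-values therefore measure a spread between samples within groups, pooled over all 80 samples, and not that of these 5 alone. The labels name no processing batch, so a difference in handling between the genotypes cannot be told apart from the genotype. In bulk RNA of sorted cells, fewer cells of a type and less RNA per cell cannot be told apart.

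Knockout replicate 3 stood apart from the other knockout samples. Over the tested genes, its correlation with the wild-type samples (r = 0.9705 and 0.9689) was as high as with knockout replicates 1 and 2 (0.9691 and 0.9645), while replicates 1 and 2 correlated at 0.9769 with each other (across genes, which are not independent replicates). For the 360 genes called lower without it, replicate 3 lay at a median of 0.396 of the way from the wild type to the other knockouts, with quartiles of 0.092 and 0.702. The same measure was 0.993 for replicate 1 and 1.10 for replicate 2 over the genes called lower without each of them. For genes called higher it was 0.631 for replicate 3, against 0.868 and 0.776 for the other replicates. In the measures of replicates 1 and 2 the other knockouts include replicate 3, which raises them where replicate 3 lies near the wild type. Each measure also rests on its own set of genes, so the values are not strictly comparable. Replicate 3 of the CD11bhigh knockout samples of the same organ was set apart at some of the same genes: Ly86 read 8.42 there, against 6.08 and 5.56 in its fellow knockouts, and Axl 6.17 against 3.54 and 3.84, whereas Ctsh read 6.53 against 6.70 and 6.75. The sample titles of replicate 3 in both gates are also built in another order from those of replicates 1 and 2. The counts over all genes, and the counts of gene lists that change, are therefore also given without replicate 3, and its part in the results beyond those values was not tested. In replicate 3 of the F4/80high knockout, the mean over 33 cytokine genes was 6.03, against 5.22 and 5.32 in the other knockouts and 5.35 and 5.25 in the wild type, and the mean over 25 chemokine genes was 7.20, against 6.58, 6.43, 6.72 and 6.76.

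Irf8 itself was not called at either of its probes. At the brighter probe it read 8.98 in both wild-type samples and 9.30, 9.46 and 9.09 in knockout replicates 1, 2 and 3, a difference of 0.30 ± 0.28 (adjusted p = 0.757). All knockout samples lay above the wild type, by less than the test could call. The further probe read 7.38 and 7.23 in the wild type and 7.30, 7.28 and 7.08 in the knockout (-0.08, adjusted p = 0.96). The sources used here do not state where in the gene the probes lie or what the deletion removed, so these levels do not check the genotype labels.

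The cells carried a macrophage profile in both genotypes. Adgre1, which encodes F4/80, read 9.77 and 9.63 in the wild type and 10.20, 9.94 and 9.78 in the knockout. Csf1r, the receptor for the growth factor CSF1, read 10.37 and 10.18 against 10.21, 10.22 and 10.24, and the fractalkine receptor Cx3cr1 10.94 and 10.68 against 10.90, 10.79 and 10.66. These genes differed by less than the test could call, as did the phagocytic receptor Mertk (0.55 ± 0.37, adjusted p = 0.614) and the high-affinity IgG receptor Fcgr1 (-0.46 ± 0.29, adjusted p = 0.572). None of 23 core macrophage genes passed the test, where 1.97% of all genes tested did, and their median change was -0.11, against -0.0046 over all genes. Itgam, the CD11b integrin chain, read 6.91 and 6.77 in the wild type and 5.94, 5.88 and 6.41 in the knockout, with no overlap and no call (adjusted p = 0.162). Of the 7 interferon regulatory factors tested, 0 were called, and Irf1 came nearest, at 7.60 and 7.25 against 6.37, 6.72 and 6.99 (adjusted p = 0.135).

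In all, 337 genes (1.97% of those tested) differed between the genotypes, 101 higher in the knockout (0.591%) and 236 lower (1.38%). These shares are the background for the counts of gene lists below, and no list was tested as a set. In 315 of them (1.84% of the genes tested) the knockout and wild-type samples did not overlap, where 30.1% of all genes tested showed no overlap. Without knockout replicate 3, 484 genes were called (2.83%), 124 higher (0.726%) and 360 lower (2.11%), of which 294 were among the 337. The count fell to 207 without knockout replicate 1, 188 without knockout replicate 2, 144 without wild-type replicate 1 and 132 without wild-type replicate 2. In all 5 of these fits, 13 genes were higher (0.0761%) and 49 lower (0.287%). The 12 largest changes each way are plotted by sample.

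**Figure D1:**
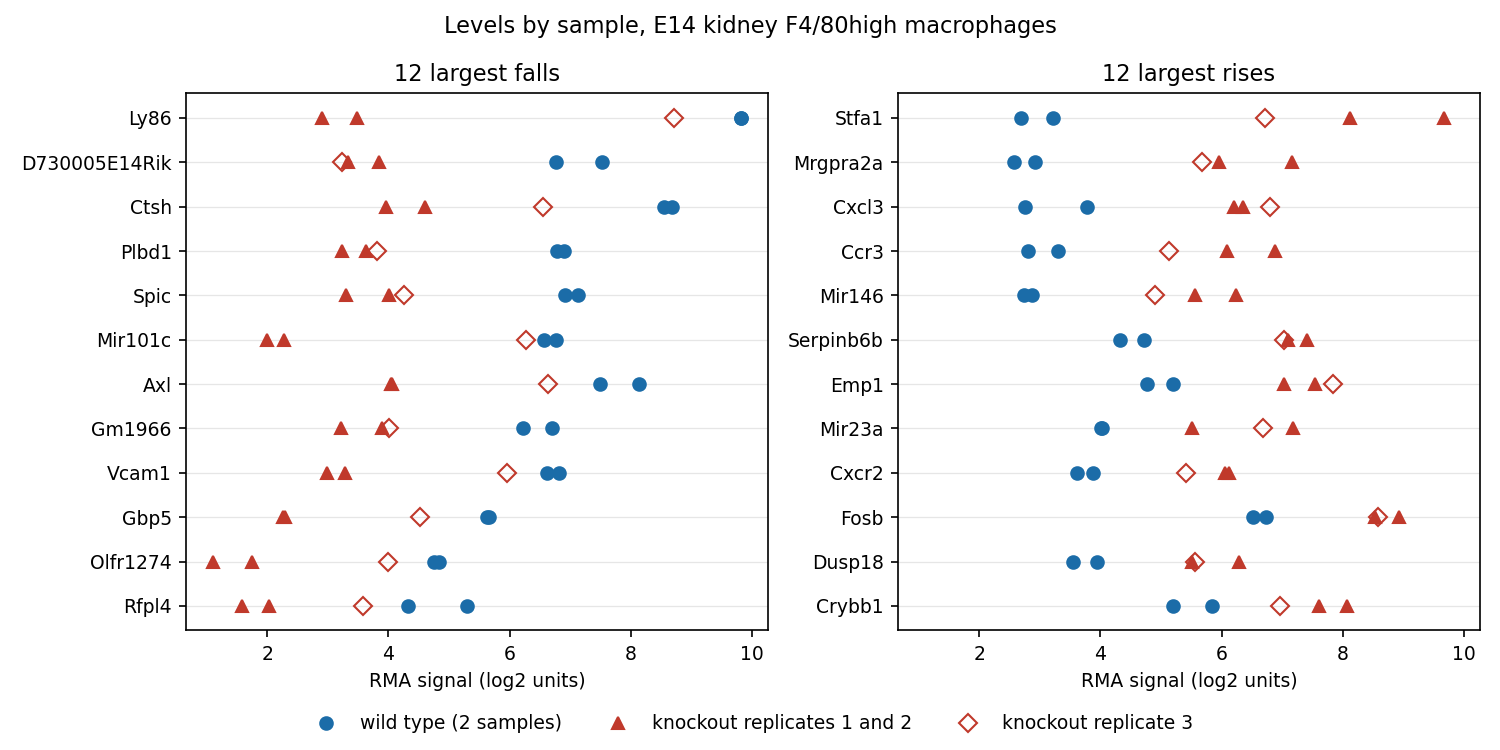
RMA signal in log2 units (x axis) of the 12 genes with the largest falls and the 12 with the largest rises among called genes whose samples did not overlap, with 1 point per sample: blue circles for the 2 wild-type samples, filled red triangles for knockout replicates 1 and 2, and open red diamonds for knockout replicate 3. Replicate 3 sits with the other knockouts for D730005E14Rik, Plbd1, Spic and Gm1966, and between the genotypes for Ly86, Ctsh, Axl, Vcam1 and Gbp5.

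The largest fall was in Ly86, which encodes MD-1, the partner of the Toll-like receptor homologue Cd180. Ly86 read 9.81 and 9.82 in the wild type and 2.91, 3.48 and 8.70 in the knockout. Replicates 1 and 2 were near the array median, and replicate 3 was close to the wild type. The change was -4.79 ± 0.69 (adjusted p = 3.13e-06) with all 3 knockouts and -6.62 without replicate 3. A pair of further genes of pathogen sensing fell by less, Tlr12, a receptor for profilin of protozoan parasites (-1.91 ± 0.36, adjusted p = 0.000518), and Tlr2, a receptor for bacterial lipoproteins (-0.95 ± 0.22, adjusted p = 0.00836). Tlr12 read 4.71 and 4.48 in the wild type and 2.58, 2.52 and 2.94 in the knockout, with replicate 3 beside the other knockouts, and its call held in all 5 fits that each left out 1 sample. The call of Tlr2 held in 1 of them, the one without knockout replicate 3. Of 21 Toll-like receptors and partners, 3 fell, where 1.38% of all genes tested did, 0 rose and 18 did not pass the test (median change 0.05). Among 17 Nod-like receptor and inflammasome genes, the sensor gene Nlrp1a fell (-1.03 ± 0.28, adjusted p = 0.0328), a call that held in 1 of the 5 fits, and 16 did not pass.

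Genes of the lysosome changed singly. Ctsh, the lysosomal protease cathepsin H, read 8.69 and 8.54 in the wild type and 3.96, 4.60 and 6.55 in the knockout. All knockout samples lay below the wild type, with replicate 3 midway. The fall was -3.58 ± 0.40 (adjusted p = 5.03e-09) and held in every fit that left out 1 sample. Plbd1, a phospholipase B-like protein of lysosomes and granules, read 6.79 and 6.89 against 3.62, 3.24 and 3.81, a fall of -3.28 ± 0.47 (adjusted p = 2.7e-06) in which the 3 knockout samples lay together. Psap, the precursor of the saposins that help degrade sphingolipids, fell slightly, from 10.14 and 10.05 to 9.50, 9.36 and 9.37 (adjusted p = 0.01), and its call held in 2 of the 5 fits. Of 21 cathepsins and their inhibitors, Ctsh fell, the inhibitor gene Stfa1 rose and 19 did not pass, and of 27 lysosomal enzymes and membrane proteins 1 fell and 26 did not pass (median change 0.09).

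Receptors by which macrophages take up dying cells were split. Axl, a receptor kinase that binds phosphatidylserine through Gas6, read 8.14 and 7.50 in the wild type and 4.05, 4.06 and 6.64 in the knockout (-2.90 ± 0.43, adjusted p = 6.51e-06). Timd4, which binds phosphatidylserine directly and marks long-lived resident macrophages, read 7.55 and 7.83 against 5.18, 4.92 and 6.21 (-2.25 ± 0.45, adjusted p = 0.001). In both genes the samples did not overlap, and replicate 3 was the highest knockout. Cd300lb, an activating receptor of the CD300 family that can bind dying cells, rose from 4.15 and 3.77 to 5.56, 6.04 and 5.24 (1.65 ± 0.32, adjusted p = 0.000736), with a neighbour of the family, Cd300ld, which went from 5.61 and 5.72 to 7.62, 7.40 and 7.12 (1.71 ± 0.34, adjusted p = 0.00102). Of 19 efferocytosis genes, 2 fell, 1 rose and 16 did not pass (median change 0.40), and of 16 TREM and CD300 genes 2 rose and 14 did not pass (median change 0.38). The shares over all genes tested were 1.38% for falls and 0.591% for rises.

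Of 36 myeloid transcription factors 2 fell, 1 rose and 33 did not pass the test, and 3 rose without replicate 3, when Klf2 and Cebpa were also called. Spic, an ETS factor of red pulp and other iron-recycling macrophages, read 6.91 and 7.13 in the wild type and 4.01, 3.31 and 4.25 in the knockout. The 3 knockout samples lay together below the wild type (-3.16 ± 0.40, adjusted p = 2.04e-07). Batf3, a factor of conventional dendritic cells, read 6.18 and 6.36 against 4.54, 3.00 and 4.50 (-2.26 ± 0.44, adjusted p = 0.000836). Klf4, a factor of monocytes that is also induced quickly by stimuli, rose from 5.20 and 4.81 to 7.13, 6.39 and 7.18 (1.89 ± 0.36, adjusted p = 0.000707). The other genes of iron and heme handling did not follow Spic: of 18 tested, Spic fell and 17 did not pass the test (median change -0.05), and without replicate 3 the haptoglobin gene Hp was called higher (adjusted p = 0.0397).

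Some genes linked to interferon fell, while most of that list did not pass the test. Ifitm3, a membrane protein that blocks viral entry, read 9.50 and 9.38 in the wild type and 6.40, 6.57 and 8.17 in the knockout. The knockout samples were all lower, replicate 3 the least, and the fall of -2.40 ± 0.28 (adjusted p = 1.92e-08) held in all 5 fits. Gbp5, an interferon-inducible GTPase of host defence, read 5.63 and 5.66 against 2.27, 2.30 and 4.53 (-2.62 ± 0.51, adjusted p = 0.000836) and also held in all 5. Mx2, a GTPase that restricts viruses (-1.50 ± 0.39, adjusted p = 0.022), Zbp1, a sensor of Z-form nucleic acid (-1.47 ± 0.36, adjusted p = 0.0112) and Sp100, a nuclear body protein (-1.28 ± 0.35, adjusted p = 0.031) fell less and held in 2, 2 and 1 of the fits. The 3 further probes of Sp100 changed by 0.36, -0.07 and -0.68 and were not called. Of 34 interferon-stimulated genes, 4 fell, where 1.38% of all genes tested did, 0 rose and 30 did not pass. Their median change was -0.04, and -0.32 with 5 lower when replicate 3 was left out. Some of them were highest in replicate 3, such as Isg15, a ubiquitin-like modifier, at 6.65 and 6.72 in the wild type and 6.05, 6.25 and 7.98 in the knockout. Of 14 interferon-inducible GTPases 1 fell and 13 did not pass (median change -0.38).

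Among genes of antigen presentation and adhesion, H2-DMa, a chain of the chaperone that loads peptides on MHC class II, read 5.59 and 5.99 in the wild type and 3.52, 4.31 and 4.36 in the knockout (-1.73 ± 0.30, adjusted p = 0.000147). The samples did not overlap and the call held in all 5 fits. It was the 1 call among 12 MHC class II genes, of which 10 had a negative change (median -0.54), and the classical chain H2-Aa was near the array median in every sample (2.19 to 3.12). Vcam1, an adhesion molecule that binds the integrin VLA-4, read 6.61 and 6.82 against 2.99, 3.28 and 5.95 (-2.64 ± 0.52, adjusted p = 0.000842), with replicate 3 just below the wild type. Selplg, the selectin ligand PSGL-1 (-1.25 ± 0.27, adjusted p = 0.00296), and Itgal, the CD11a integrin chain (-0.84 ± 0.24, adjusted p = 0.0484), fell by less, and their calls held in 3 and 1 of the 5 fits. Of 24 integrins and adhesion molecules 3 fell, where 1.38% of all genes tested did, 0 rose and 21 did not pass. Without replicate 3, 2 fell and Itgal was not called. Cd52, a small surface glycoprotein of leukocytes, is given for its tight samples and was chosen after its values were seen: it read 9.09 and 9.23 against 6.82, 6.91 and 7.57 (-2.06 ± 0.20, adjusted p = 3.26e-11).

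**Figure D2:**
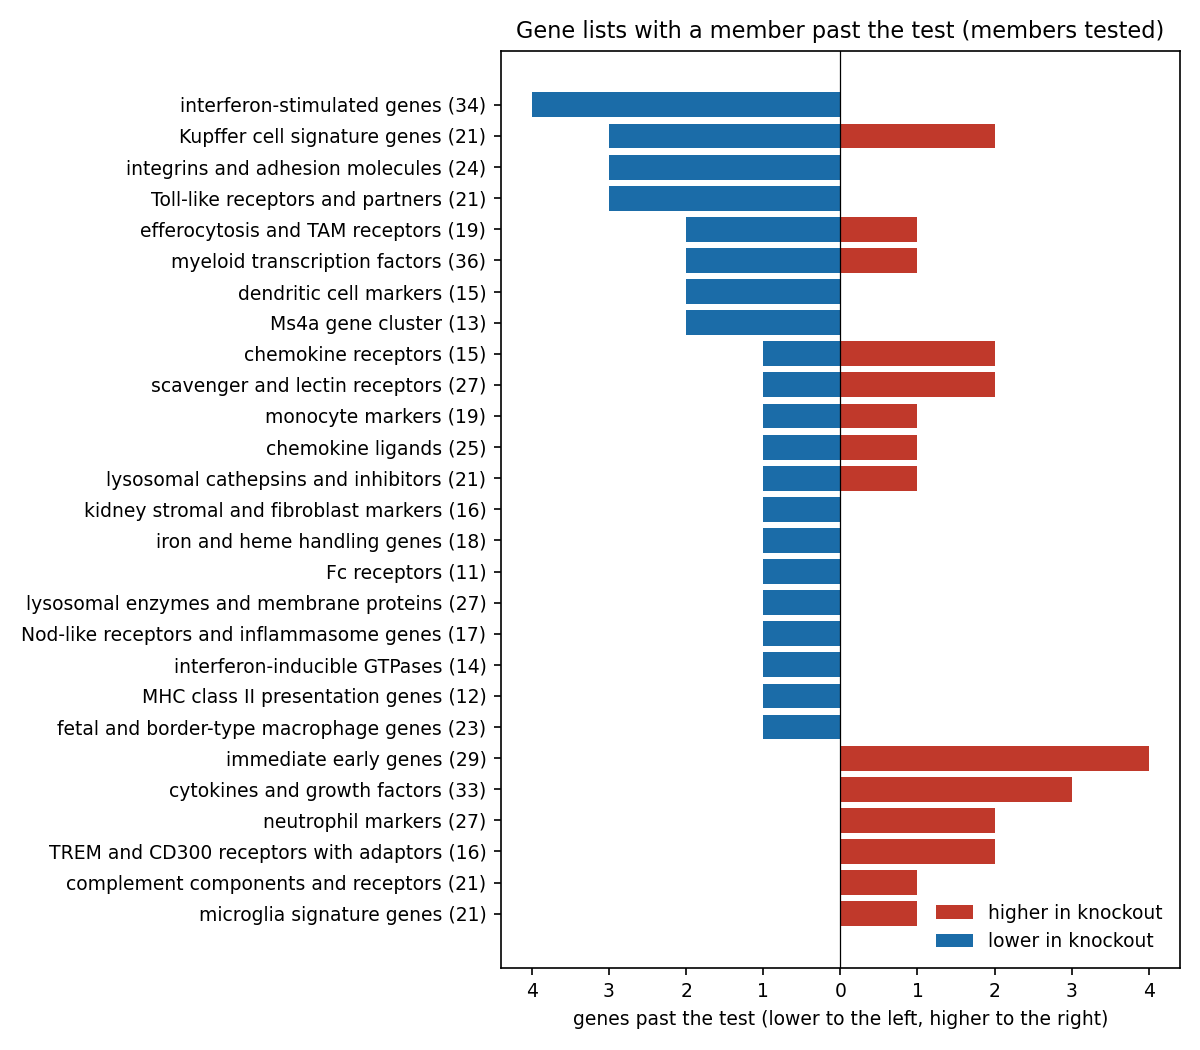
Number of genes past the test (x axis, lower in the knockout to the left and higher to the right) in each gene list with at least 1 such gene, with the number of members tested in brackets (y axis). Interferon-stimulated genes had 4 lower and immediate early genes 4 higher, and no list had more than 5 members past the test. The shares over all genes tested were 1.38% lower and 0.591% higher.

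Promoters of the called genes were searched for the letters of Irf8-type sites because Irf8 is known to bind such elements. The motifs were GGAANNGAAA (an ETS site followed by an interferon regulatory factor site), GAAANNGGAA (the same in the other order) and GAAANNGAAA (interferon-stimulated response), on both strands, with overlaps between motifs counted once per gene, in RefSeq windows from 250 bases before to 50 bases after the gene start (build GRCm38.p6). At least 1 motif was held by 14.9% of the 175 lower genes with an entry, by 8.54% of the 82 higher genes and by 9.18% of all 13188 tested genes with an entry. The GAAANNGAAA motif was held by 6.29%, 0% and 3.65% of them, in that order. These shares describe letters and no site was measured. Shown are the 250 bases before the start of 4 genes that fell, with the motif letters in capitals: Gbp5 at chr3:142496684-142496933 (plus strand), with both an ETS and interferon regulatory factor composite and a response element, Timd4 at chr11:46810549-46810798 (plus strand) with 1 composite, Phf11b, a PHD-finger gene, at chr14:59341331-59341580 (minus strand) with a response element, and Cybb, the catalytic chain of the phagocyte NADPH oxidase, at chrX:9469325-9469574 (minus strand) with 3 response elements.
Gbp5: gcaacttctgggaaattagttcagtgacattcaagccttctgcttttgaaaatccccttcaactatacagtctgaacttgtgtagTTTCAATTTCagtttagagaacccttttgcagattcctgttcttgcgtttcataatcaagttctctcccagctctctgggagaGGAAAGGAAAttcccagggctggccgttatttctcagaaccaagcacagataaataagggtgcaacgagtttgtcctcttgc
Timd4: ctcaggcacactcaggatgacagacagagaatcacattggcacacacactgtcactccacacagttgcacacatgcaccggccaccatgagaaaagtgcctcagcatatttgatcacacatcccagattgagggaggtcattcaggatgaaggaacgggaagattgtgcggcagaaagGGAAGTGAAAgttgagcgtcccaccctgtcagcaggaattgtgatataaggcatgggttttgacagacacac
Phf11b: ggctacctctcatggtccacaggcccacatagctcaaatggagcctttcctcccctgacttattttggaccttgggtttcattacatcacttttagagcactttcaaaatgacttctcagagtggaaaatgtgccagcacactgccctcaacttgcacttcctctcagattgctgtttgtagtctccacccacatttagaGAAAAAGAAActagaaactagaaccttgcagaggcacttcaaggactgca
Cybb: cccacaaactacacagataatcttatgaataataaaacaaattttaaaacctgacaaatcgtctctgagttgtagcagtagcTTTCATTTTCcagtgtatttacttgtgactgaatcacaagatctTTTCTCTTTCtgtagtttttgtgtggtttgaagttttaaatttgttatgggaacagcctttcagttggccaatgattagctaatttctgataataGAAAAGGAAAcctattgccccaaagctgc
The motif of Timd4 began 72 bases before the start and the composite of Gbp5 82 bases before it. Phf11b and Cybb were chosen after their values were seen. Cybb read 8.97 and 8.86 in the wild type and 6.51, 6.03 and 8.15 in the knockout (-2.02 ± 0.49, adjusted p = 0.0102), with replicate 3 nearer to the wild type. Phf11b read 7.93 and 8.37 against 5.44, 5.05 and 6.92 (-2.34 ± 0.38, adjusted p = 4.14e-05), and reads of its close relatives cannot be told apart from it with certainty on the array.

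Stfa1 showed the largest rise. It encodes stefin A1, an inhibitor of cysteine proteases that is abundant in neutrophils and monocytes, and has near-identical relatives. Stfa1 read 3.22 and 2.68 in the wild type and 8.12, 9.67 and 6.72 in the knockout (5.22 ± 0.72, adjusted p = 1.46e-06). All knockout samples were higher by more than 3 units, and the call held in every fit that left out 1 sample. Mrgpra2a, a G protein-coupled receptor gene expressed in mouse neutrophils that also has a close copy, read 2.93 and 2.57 against 5.96, 7.16 and 5.67 (3.52 ± 0.50, adjusted p = 2.19e-06). Cxcr2, the neutrophil receptor for CXC chemokines, rose from 3.62 and 3.87 to 6.11, 6.06 and 5.42 (2.12 ± 0.46, adjusted p = 0.00341), and Cxcl3, one of its ligands, from 3.78 and 2.76 to 6.20, 6.35 and 6.80 (3.18 ± 0.58, adjusted p = 0.00034).

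Markers of neutrophils moved with these rises in part. Of 27 neutrophil markers 2 rose (Cxcr2 and Mrgpra2a), 0 fell and 25 did not pass (median change 0.22), the granule gene Olfm4 making 3 rises without replicate 3, and the list mean was 3.16 and 3.18 in the wild type and 3.54, 4.25 and 3.58 in the knockout. The calprotectin gene S100a8 read 2.29 and 3.47 against 3.98, 9.63 and 4.52, and its partner S100a9 3.45 and 3.50 against 4.62, 8.20 and 4.91, so that knockout replicate 2 stood out. The neutrophil surface gene Ly6g (1.86 to 2.83) and the granule genes Ltf (2.59 to 2.98) and Ngp (3.04 to 3.88) stayed near the array median in all 5 samples. Without knockout replicate 2, the calls of Stfa1 and Mrgpra2a remained. S100a9 also lay above the wild type in the remaining knockout samples (4.62 and 4.91), so leaving out replicate 2 does not remove that signal. The part of neutrophil RNA in any of the rises, those of Stfa1 and Mrgpra2a included, was not tested.

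Chemokine and growth factor genes also changed. Ccr3, a receptor for eotaxins, rose from 2.81 and 3.30 to 6.89, 6.08 and 5.14 (2.98 ± 0.66, adjusted p = 0.00441), and Ccr1, a receptor for several CC chemokines, fell from 7.13 and 7.40 to 5.14, 4.79 and 5.39 (-2.16 ± 0.48, adjusted p = 0.00408). Cxcl16, a transmembrane chemokine, fell from 8.41 and 8.18 to 6.01, 5.79 and 7.55 (-1.84 ± 0.39, adjusted p = 0.00228). These calls held in 3, 4 and 3 of the 5 fits, in that order. Bmp2, a bone morphogenetic protein, read 6.91 and 6.84 in the wild type and 8.25 to 9.01 in the 3 knockout samples, with replicate 3 the lowest (1.88 ± 0.42, adjusted p = 0.0041). The cytokine gene Lif (1.66 ± 0.41, adjusted p = 0.014) and the macrophage growth factor Csf1 (1.65 ± 0.43, adjusted p = 0.022) were highest in knockout replicate 3, at 6.02 and 6.52, and neither was called without it (adjusted p = 0.157 and 0.113). Of 33 cytokines and growth factors 3 rose, 0 fell and 30 did not pass. Without replicate 3 the balance of this list turned, with 1 rise (Bmp2) and 2 falls. These were Hbegf, a ligand of the EGF receptor, at 7.43 and 6.95 against 5.13, 5.09 and 7.19, and Csf2, the growth factor GM-CSF, at 2.80 and 4.26 against 1.91, 2.22 and 6.26, where replicate 3 was inside or above the wild-type range. Of 25 chemokine ligands 1 rose and 1 fell, and without replicate 3 Ccl22 made 2 falls.

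Immediate early genes, which cells switch on within minutes of a stimulus or of handling, included 4 rises. Fosb, a subunit of the AP-1 factor, read 6.52 and 6.74 in the wild type and 8.93, 8.52 and 8.59 in the knockout (2.05 ± 0.37, adjusted p = 0.000287). Cd69, an early activation antigen, read 4.52 and 4.89 against 6.68, 6.70 and 6.51 (1.93 ± 0.34, adjusted p = 0.000161), and Dusp1, a phosphatase of MAP kinases, 8.94 and 9.05 against 10.02, 9.66 and 10.10 (0.93 ± 0.22, adjusted p = 0.01). In these genes the genotypes did not overlap and replicate 3 lay with the other knockouts. With Klf4 they made 4 rises and 0 falls among 29 genes, where 0.591% of all genes tested rose, and 25 did not pass (median change 0.33). Without replicate 3 there were 6 rises and 1 fall, with Klf2 and Fos called higher and Gadd45b, a stress-induced gene, called lower. Fos read 8.27 and 8.21 against 9.34, 9.43 and 8.26 (adjusted p = 0.26 with all samples). A brighter member that was called in neither fit is Egr1, at 10.99 and 10.98 against 10.63, 10.47 and 10.43 (adjusted p = 0.704).

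Genes known from other resident macrophages rose too. Crybb1, a crystallin gene that is abundant in microglia, read 5.85 and 5.19 in the wild type and 8.07, 7.61 and 6.96 in the knockout (2.03 ± 0.32, adjusted p = 2.8e-05). Vsig4, the complement receptor of Kupffer cells, rose from 2.78 and 2.17 to 4.69, 4.49 and 4.24 (2.00 ± 0.48, adjusted p = 0.00936), and Clec4n, the lectin receptor Dectin-2, from 7.27 and 7.33 to 8.42, 8.14 and 8.28 (0.98 ± 0.28, adjusted p = 0.0464). Vsig4 held in 3 and Clec4n in 0 of the 5 fits. The lists as wholes held few calls: of 21 microglia signature genes 1 rose and 20 did not pass, and of 21 Kupffer cell genes 2 rose, 3 fell (Timd4, Spic and the proteoglycan Sdc3) and 16 did not pass, with 1 rise and 3 falls without replicate 3. Serpinb6b, an intracellular protease inhibitor, rose evenly in the knockouts, from 4.33 and 4.72 to 7.09, 7.41 and 7.04 (2.65 ± 0.35, adjusted p = 3.79e-07), and Emp1, a membrane protein of cell contacts, from 4.77 and 5.20 to 7.03, 7.54 and 7.84 (2.49 ± 0.50, adjusted p = 0.00112, and 1.45 at a further probe). Dusp18, a further dual-specificity phosphatase, rose by 2.04 ± 0.46 (adjusted p = 0.00485).

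Among the rises were 4 of the 278 microRNA genes tested, where 0.591% of all genes rose. Array probes read them as gene transcripts and not as mature microRNAs. The mature forms are shown because 2 of them, Mir23a and Mir27a, lie beside each other on chromosome 8, and the capitals mark the seed, bases 2 to 8, through which a microRNA pairs with its targets. The RefSeq sequences (GRCm38.p6) share no seed.
mmu-miR-146a-5p: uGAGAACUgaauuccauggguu
mmu-miR-23a-3p: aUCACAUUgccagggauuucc
mmu-miR-27a-3p: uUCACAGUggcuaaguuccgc
mmu-miR-142a-3p: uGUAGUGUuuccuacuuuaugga
Mir146, whose product dampens Toll-like receptor signalling, read 2.87 and 2.73 in the wild type and 6.24, 5.55 and 4.90 in the knockout (2.76 ± 0.57, adjusted p = 0.00179). Mir23a read 4.03 and 4.02 against 7.17, 5.52 and 6.68 (2.43 ± 0.58, adjusted p = 0.0102), and its neighbour Mir27a 4.27 and 3.77 against 6.21, 5.04 and 5.89 (1.69 ± 0.48, adjusted p = 0.0422). Mir142, a microRNA gene of blood cells, read 3.73 on average in the wild type and 6.56, 6.37 and 4.15 in the knockout (1.96 ± 0.56, adjusted p = 0.0456), and replicate 3 was close to the wild type. Mir27a and Mir142 were chosen after their values were seen.

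The remaining lists held few or no calls. Cell cycle and DNA replication genes (33), D cyclins and regulators of G1 (18), respiratory chain genes (22), apolipoprotein and lipid genes (22), receptors for myeloid growth factors and cytokines (27) and MHC class I genes (19) had 0 called, with medians between -0.14 and -0.04. Of 11 Fc receptors, the inhibitory IgG receptor Fcgr2b fell from 4.97 and 4.80 to 3.47, 3.02 and 3.67 (adjusted p = 0.00235), and 10 did not pass. Among 27 scavenger and lectin receptors, the inhibitory sialic acid receptor Siglece and Clec4n rose, the beta-glucan receptor Clec7a fell (-0.84 ± 0.23, adjusted p = 0.0393, held in 1 of 5 fits) and 24 did not pass. Siglece alone of these was called without replicate 3. Of 13 Ms4a genes, Ms4a4c (-2.38 ± 0.64, adjusted p = 0.027) and Ms4a14 (-1.71 ± 0.38, adjusted p = 0.0042) fell, with Ms4a14 at 6.23 in replicate 3, inside the wild-type range of 6.15 to 6.54. In all, 47 of the 755 distinct genes on the lists were called, where 1.97% of all genes tested were. The lists were chosen with earlier results of these data known, so this count does not test them.

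Several marker lists of other cell types were low. List means of T and NK cell, mast cell, endothelial, nephron and ureteric bud genes lay between 2.33 and 3.29 in the 5 samples, and 0 of their tested members were called. Higher means were seen for B cell (3.42 to 3.69), erythroid (3.32 to 3.95) and megakaryocyte markers (4.34 to 4.73). None of the 10 B cell, 13 megakaryocyte and 16 erythroid markers tested was called. Without replicate 3 the erythroid markers Trim10 and Ermap and the nephron marker Jag1 were called lower, and Thbs1, on the megakaryocyte list, higher. The kidney stromal list mean was 3.38 and 3.35 in the wild type and 3.33, 3.11 and 3.69 in the knockout, and its 1 called gene, the mesenchymal factor Tcf21, read 5.14 and 4.02 against 2.45, 2.59 and 4.41. Among 19 monocyte markers Plac8, a small protein of myeloid cells, rose from 4.76 and 4.77 to 6.25, 6.69 and 5.98 (1.54 ± 0.38, adjusted p = 0.0117), Ms4a4c fell and 17 did not pass. Without replicate 3, 5 monocyte markers rose and 1 fell, the further rises being the haptoglobin gene Hp, the fibronectin gene Fn1, the thrombospondin gene Thbs1 and the calcium-binding protein gene S100a4. S100a4 read 5.39 and 5.71 in the wild type and 7.04, 7.30 and 6.00 in the knockout, and Thbs1 5.67 and 5.10 against 7.33, 7.88 and 5.93. Neither overlapped between the genotypes. The defining monocyte gene Ly6c2 read 2.03 and 2.41 in the wild type and 1.99, 2.91 and 1.77 in the knockout, while the CD11bhigh samples of the same organ read 6.94 to 9.58. Of 15 dendritic cell markers Batf3 and the lysosomal amidase Naaa fell and 13 did not pass. Sex-linked genes differed between samples, and none was called by genotype: Xist read 9.74 and 6.01 against 9.53, 5.17 and 8.44. The Y-linked Eif2s3y read 1.49 and 6.90 against 5.66, 7.57 and 7.15. Eif2s3y and the further Y-linked genes Uty (1.94) and Kdm5d (2.43) were below the array median in wild-type replicate 1 alone. Knockout replicates 1 and 3 read high for both Xist (9.53 and 8.44) and Eif2s3y (5.66 and 7.15), so these samples do not read as a single sex. The balance of the sexes was therefore uneven over the samples, and what this did to the calls was not tested. Leaving out genes on chromosomes X and Y kept 325 of the calls. That fit holds the same samples, so it does not test an effect of sex on genes of other chromosomes.

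**Figure D3:**
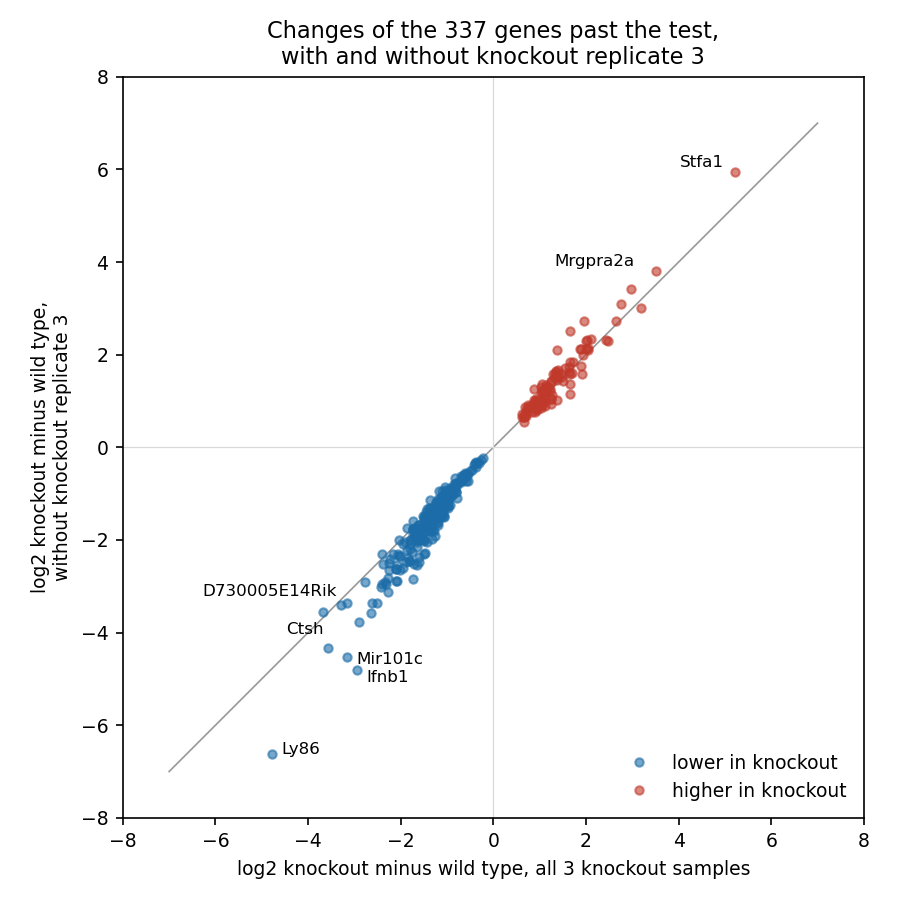
Log2 change of each of the 337 called genes with all 3 knockout samples (x axis) and without knockout replicate 3 (y axis), with blue points for genes lower and red points for genes higher in the knockout and a grey line of equal values. Ly86, Mir101c, Ifnb1 and Ctsh lie below the line, with larger falls when replicate 3 is left out, and D730005E14Rik lies near it.

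Some of the largest falls were in genes on none of the lists. The non-coding gene D730005E14Rik read 7.53 and 6.77 in the wild type and 3.34, 3.84 and 3.23 in the knockout (-3.68 ± 0.49, adjusted p = 4e-07), and the predicted gene Gm1966 6.71 and 6.23 against 3.89, 3.21 and 4.01 (-2.76 ± 0.33, adjusted p = 5.69e-08). In both the knockout samples lay together. Olfr1274, an olfactory receptor gene (-2.51 ± 0.45, adjusted p = 0.000248), and Rfpl4, a ret finger protein-like gene (-2.42 ± 0.30, adjusted p = 1.64e-07), had replicate 3 above the other knockouts, which read 1.10 to 2.03. Mir101c read 6.77 and 6.57 against 2.00, 2.27 and 6.27 (-3.16 ± 0.57, adjusted p = 0.000275), so that replicate 3 was just below the wild type, and in the 69 samples outside the E14 kidney it read 1.43 to 3.24. In a fit of the 5 compared samples alone, Ly86 (adjusted p = 0.177), Mir101c (0.237), Axl (0.102), Vcam1 (0.167), Gbp5 (0.104), Olfr1274 (0.169) and Rfpl4 (0.103) were not called, and these are genes in which replicate 3 lay apart from the other knockouts. The other 5 of the 12 largest falls and all 12 of the largest rises were called in that fit.

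The knockout was next set beside the same knockout in adult kidney F4/80high macrophages, at 6 weeks, with no samples in common. There, 609 genes were called (3.57%), 234 higher (1.37%) and 375 lower (2.2%). Of the rises at E14, 15 were also rises in the adult (14.9% of the 101 and 6.41% of the 234), and of the falls 39 (16.5% of the 236 and 10.4% of the 375), while 3 genes went the opposite way. Axl fell in both, by 1.47 in the adult, as did Ctsh and Batf3, and Mrgpra2a, Serpinb6b, Emp1, Bmp2, Vsig4 and Cd300lb rose in both. In 177 genes (1.04%) the effects themselves differed by the interaction term of the fit, 78 more positive (0.457%) and 99 more negative (0.58%) at E14. Stfa1 read 2.35 on average in the adult wild type and 2.29 in the adult knockout (-0.06), so that its rise at E14 was larger by 5.28 ± 0.97 (adjusted p = 0.000547). Ly86 read 9.10, 8.91 and 8.70 in the adult knockouts and 9.68 to 9.91 in the adult wild type, a change of -0.88 that was not called, and the E14 effect was more negative by 3.90 (a difference of -3.90 ± 0.93, adjusted p = 0.0161). F13a1, a coagulation factor chain made by resident macrophages, rose in the adult (4.50) and not at E14, where it read 9.19 and 9.18 against 9.25, 9.44 and 9.08 (difference -4.42 ± 0.69, adjusted p = 4.5e-05). Without wild-type replicate 1 or 2 of the E14 cells the count of differing genes was 90 and 65, and the 99 more negative effects were 151 without knockout replicate 3.

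In the same organ and at the same stage, the CD11bhigh gate showed 2389 calls (14%), 1011 higher (5.92%) and 1378 lower (8.07%). The labels do not state whether the gates were sorted from the same embryos, but 2 wild-type and 3 knockout samples of each gate carry a number in their titles that recurs in the other gate. Of the rises in F4/80high cells 40 were shared (39.6% of the 101 and 3.96% of the 1011), and of the falls 142 (60.2% of the 236 and 10.3% of the 1378), with 5 genes opposite. The knockout samples of both gates follow each other in the order of deposition, apart from the wild types. A difference in handling common to both gates therefore cannot be told apart from a shared effect of the genotype. Ly86 (-2.96), Spic (-2.90), Axl (-2.50) and Gbp5 (-2.14) fell in CD11bhigh cells as well, and Mrgpra2a (5.07) and Cxcr2 (3.47) rose. The effects differed in 362 genes (2.12%), 192 more positive (1.12%) and 170 more negative (0.996%) in F4/80high cells. C1qb, a chain of the complement component C1q, fell in CD11bhigh cells (-4.96), and in F4/80high cells read 10.69 and 10.67 against 9.59, 8.93 and 9.74, with no overlap and no call (difference 3.70 ± 0.69, adjusted p = 0.000699). The monocyte-attracting chemokine gene Ccl12 fell by 4.38 in CD11bhigh cells and read 9.52 and 9.49 against 9.55, 9.67 and 9.39 in F4/80high cells (difference 4.41 ± 0.73, adjusted p = 0.000114). Of the core macrophage genes, 11 had a more positive and 0 a more negative effect in F4/80high than in CD11bhigh cells. Genes of neutrophil granules went the other way: Ngp (5.16), Ltf (5.25) and Chil1 (4.71) rose in CD11bhigh cells and were called in no direction in F4/80high cells, and 9 of the 27 neutrophil markers had a more negative effect in F4/80high cells. The count of 362 was 206 without wild-type replicate 1, 137 without wild-type replicate 2 and 716 without knockout replicate 3 of both gates, and 42 when the fit held the E14 kidney groups only. In the wild type the gates differed in 994 genes (5.82%), 531 higher (3.11%) and 463 lower (2.71%) in F4/80high cells, among the latter Stfa1, at 2.95 in F4/80high and 10.73 in CD11bhigh cells on average. That count was 519 without wild-type replicate 1, 477 without wild-type replicate 2 and 602 in the fit of the E14 kidney groups only. With the title number as a block that joins the gates, the knockout effects differed in 352 genes and the wild-type gates in 884.

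**Figure D4:**
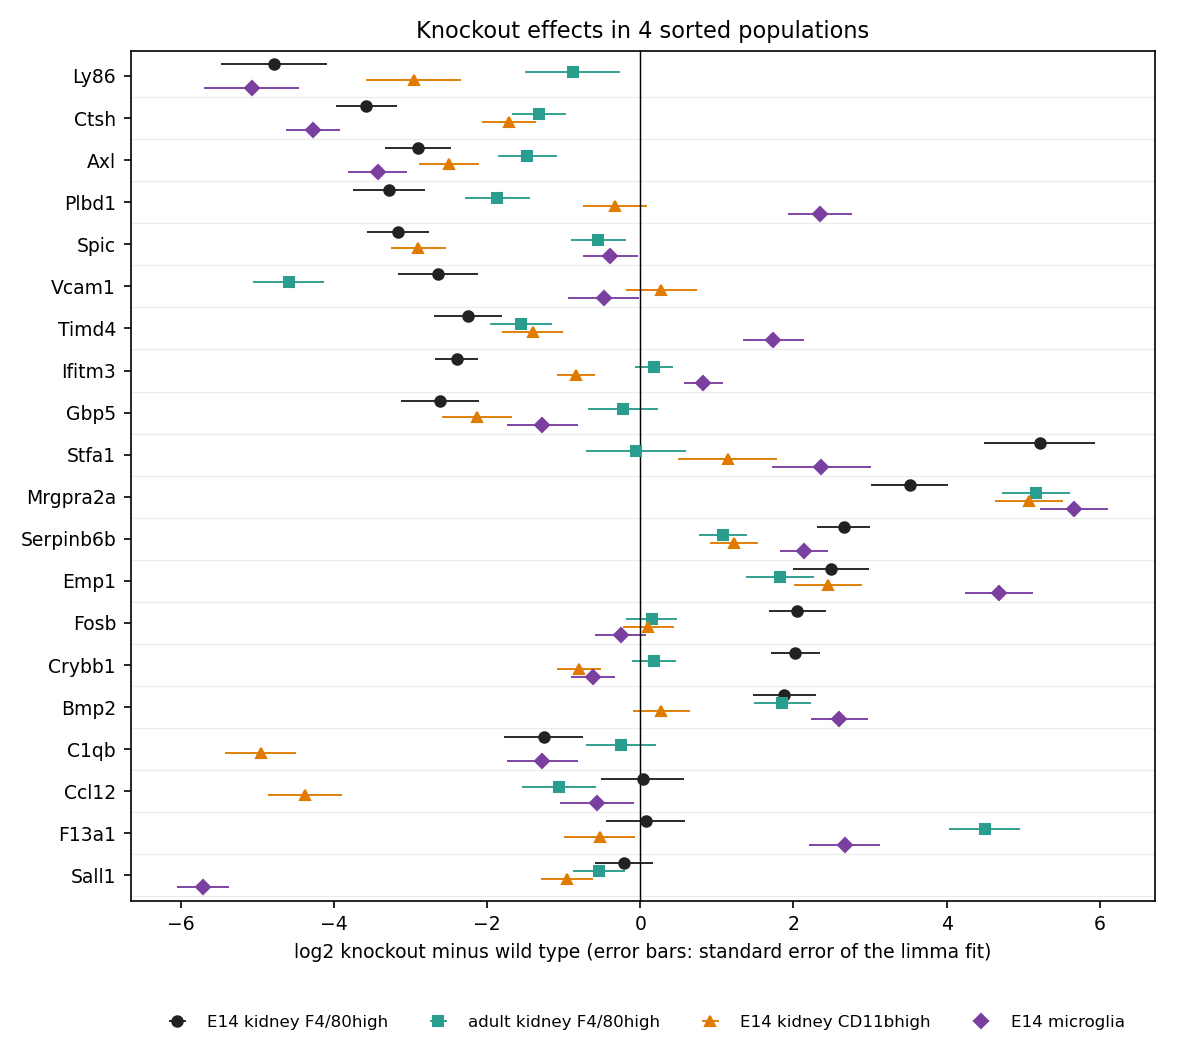
Log2 change from wild type to knockout (x axis, error bars are standard errors of the limma fit) of 20 named genes (y axis) in 4 sorted populations: E14 kidney F4/80high (black circles), adult kidney F4/80high (green squares), E14 kidney CD11bhigh (orange triangles) and E14 microglia (purple diamonds). Ctsh and Axl are to the left of 0 and Mrgpra2a, Serpinb6b and Emp1 to the right of 0 in all 4, while Sall1 is far to the left in microglia and Ccl12 and C1qb in CD11bhigh cells.

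E14 microglia, the brain macrophages of the same stage, showed 2442 calls (14.3%), 1420 higher (8.32%) and 1022 lower (5.99%) in the knockout. The E14 kidney cells shared 33 of their rises (32.7% of the 101 and 2.32% of the 1420) and 52 of their falls (22% of the 236 and 5.09% of the 1022), while 10 rises were falls there and 20 falls were rises. Ly86 fell by 5.08 in microglia and Ctsh by 4.28. Plbd1 was opposite: it rose in microglia (2.35) and fell in the kidney cells (difference -5.63 ± 0.63, adjusted p = 5.34e-09). Mir146 was opposite too, with a fall of 2.29 in microglia (difference 5.05 ± 0.77, adjusted p = 5.09e-06), and so were Timd4 (1.74) and Ifitm3 (0.82), which rose in microglia. Sall1, the zinc finger factor that marks microglia, fell by 5.71 there and was near the array median in the kidney cells (2.48 to 3.97). The effects differed in 1217 genes (7.13%), 479 more positive (2.81%) and 738 more negative (4.32%) in the kidney cells, and in 762 and 608 without wild-type replicates 1 and 2. In all 4 populations 6 genes were called higher, namely Eepd1, Emp1, Mfsd6, Mrgpra2a, the mitochondrially encoded ND3 and Serpinb6b. The 15 called lower in all 4 included Axl, Ctsh, H2-DMa, Naaa, Psap, the cytidine deaminase Apobec3 and the receptor Slamf6, whose further probe was not called in the kidney cells (-0.49).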

How the data were processed

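RNA of sorted cells was measured on Affymetrix arrays, and the authors deposited log2 signals. Per the submitters' processing notes, Affymetrix Expression Console and RMA produced them. The sources used here give no version and no genome build. Of 41345 probes, 23521 had 1 gene symbol in the platform annotation, and the brightest probe per gene was kept (22180 genes, 1082 with several probes). A gene was tested when it exceeded 3.041, the 50th percentile of the table, in at least 2 samples. Repeat runs of 1 sample were averaged (81 arrays, 80 samples).

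Group means were fitted over all 80 samples in R 4.3.3 with limma 3.58.1 (variance trend, 53 residual degrees of freedom), since 2 and 3 samples give a poor spread alone. Tests were two-sided, with Benjamini-Hochberg adjustment over all 17076 genes and a threshold of 0.05. Differences of knockout effects were interaction contrasts. The code was tested on simulated data. Tables and figures used Python 3.11.15, pandas 2.3.3 and matplotlib 3.10.9.

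Named genes were Irf8, the 12 largest rises and falls among called genes without overlap, up to 4 called members of each list, taken by adjusted p, the 5 largest differences each way per contrast, interferon regulatory factors, gate markers and sex-linked genes. The 44 lists (966 entries, 876 tested) came from general knowledge. Samples, lists and tests were chosen with earlier results of these data known. Replicate numbers of the genotypes did not pair the samples (correlations of deviations -0.00366 and 0.0715). Alternatives were other groups in the fit, array weights, normalizations, filters, probes, a block and each sample left out. The run without chromosomes X and Y, that without knockout replicate 3 of both gates and the block by title number were added after seeing the data.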

Additional observations from a re-analysis of the deposited data

Results flagged for a closer look

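In 30 cases the knockout effect in E14 kidney F4/80high macrophages differed from that in another population by the interaction test of the limma fit. Values are differences of log2 effects, this population minus the other, and no cause was tested.

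Against adult kidney F4/80high macrophages, the more positive effects at E14 were in Stfa1 (5.28), Klra2, a natural killer cell lectin-like receptor gene (4.92), Pde7b, a phosphodiesterase (3.98), Thbs1, the matrix protein thrombospondin (3.77), and Mir146 (3.24). Klra2 (-4.71), Pde7b (-2.85) and Thbs1 (-2.11) fell in the adult and were not called at E14. The more negative effects were in F13a1 (-4.42), Clec2i, a lectin-like gene (-3.91), Ly86 (-3.90), Cyp2a4, a cytochrome P450 (-3.86), and Ccl24, an eotaxin (-3.77). Clec2i fell at E14, from 5.14 and 4.19 to 2.74, 1.75 and 2.83, and rose in the adult (1.68). Ccl24 rose in the adult (2.08) and at E14 read 8.29 and 8.68 against 6.43, 7.13 and 6.82, with no overlap and no call (adjusted p = 0.0795).

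Against E14 kidney CD11bhigh macrophages, the more positive effects were in the chemokine genes Ccl12 (4.41), Ccl7 (4.12) and Ccl2 (3.22), in Stfa1 (4.08) and in C1qb (3.70). The 3 chemokine genes fell in CD11bhigh cells and were not called in F4/80high cells. The more negative effects were in Chil1, a chitinase-like protein (-5.19), Il1f9, an interleukin 1 family cytokine (-5.17), Ngp (-5.16), the stefin gene Csta3 (-5.16) and Ltf, lactoferrin (-5.00). These 5 rose in CD11bhigh cells, and in F4/80high cells their levels were between 1.72 and 3.88 in all 5 samples.

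Against E14 microglia, the more positive effects were in Il1a, the cytokine interleukin 1 alpha (5.61), Sall1 (5.50), Mir146 (5.05), Npnt, a matrix protein (4.54), and Slc2a5, a fructose transporter (4.53). Each of them fell in microglia. Il1a read 8.23 and 7.90 in the wild-type kidney cells and 7.43, 7.35 and 10.02 in the knockout, so that knockout replicate 3 was the highest sample. The more negative effects were in Plbd1 (-5.63), the neutrophil markers Retnlg (-5.01) and Mpo, myeloperoxidase (-4.96), the stefin gene Csta3 (-4.85) and the monocyte marker Ifitm6 (-4.61). Each of these rose in microglia.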

How the results depend on the processing

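Each result was recomputed with 1 choice changed at a time, and no named gene and no difference changed sign with a call. With every probe on its own, 1 gene, Rpl9, had probes called in opposite directions. The 337 calls (101 higher, 236 lower) became 786 (277 and 509) with array weights, 121 (56 and 65) in a fit of the 5 compared samples only, 95 (28 and 67) in a fit of the E14 kidney groups only, and 132 to 484 (27 to 124 and 93 to 360) with 1 sample left out. With the replicate number as a block they were 429, although the numbers do not pair the samples. A floor at the 75th percentile (255), no variance trend (314), no floor (329), median centring (314), every probe on its own (363) and quantile normalization (304) moved the count by less than 1.5 times. Of the 59 named genes that were called, 33 remained called with the compared samples only, 24 with the E14 kidney groups only, 51 with the replicate block, and 31 to 54 with 1 sample left out. List genes called (47) were 88 with array weights, 21 with E14 kidney groups only and 22 to 58 with 1 sample left out.

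Differences from the adult effect (177, 78 and 99) were 360 (163 and 197) with array weights and 65 to 232 (21 to 81 and 44 to 151) with 1 sample left out. Differences from the CD11bhigh effect (362, 192 and 170) were 837 (429 and 408) with array weights, 42 (32 and 10) with E14 kidney groups only, 716 (327 and 389) without knockout replicate 3 of both gates and 137 to 309 (57 to 170 and 80 to 156) with 1 sample left out. Differences from the microglia effect (1217, 479 and 738) were 2497 (988 and 1509) with array weights and 608 to 1174 (213 to 435 and 395 to 739) with 1 sample left out. The gates in the wild type (994, 531 and 463) differed in 1557 genes (835 and 722) with array weights, 602 (326 and 276) with E14 kidney groups only, 177 (125 and 52) with the replicate block and 477 to 519 (246 to 270 and 207 to 273) with 1 sample left out, and in 341 higher genes when a log2 change over 1 was also asked. In the 250 bases before the start alone, the shares of all genes with a motif were 2.45%, 2.7%, 3.18% and 7.83% for the 2 composites, the response element and any of them. The shares with any of them were 12% of the lower and 6.1% of the higher genes, against 14.9% and 8.54% in the whole window. The shorter window lies inside the longer, and the shift was not tested. Samples of both gates that share a title number had deviations from their group means that correlated at 0.0379 and 0.0218 (wild type) and 0.0919, 0.137 and 0.276 (knockout). With different title numbers, knockout replicates 1 and 2 correlated at 0.0987 and 0.0978, pairs with knockout replicate 3 at -0.145 to -0.202, and wild-type pairs at -0.0379 to 0.0165. The data therefore do not settle whether the titles pair the samples. The replicate block by title number kept 291 of the 362 differences and 771 of the 994 gate differences. The causes of these shifts were not tested.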

Other observations

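The probe of Ifnb1, the type I interferon gene interferon beta, was bright in kidney samples. It read 1.34 to 2.29 in the 57 samples from other organs, 5.16 to 10.28 in the 12 adult kidney samples, 7.62 and 7.88 in wild-type E14 kidney F4/80high cells, and 1.78, 4.09 and 8.53 in the knockout cells. The same pattern was seen in the CD11bhigh gate of the E14 kidney, where the wild type read 8.20 to 9.12 and knockout replicates 1, 2 and 3 read 1.61, 2.51 and 7.34. The gene 1700016G22Rik read 0.93 to 2.21 in all 69 samples outside the E14 kidney. Scarna2, a small RNA gene of Cajal bodies, read 8.35 and 8.48 in the wild type and 6.64, 6.66 and 6.72 in the knockout, with replicate 3 beside the others. Over the study, Scarna2 read 5.63 to 6.99 in 18 samples (Langerhans cells of both genotypes, knockout yolk sac A1 and A2 populations and knockout E14 kidney) and 6.91 to 9.77 in the other 62. A further small RNA gene, Snord118, was not set apart by the same split, at 5.36 to 8.59 in the 18 and 5.73 to 9.19 in the 62. Those 18 samples follow each other in the order of deposition, and they hold every E14 kidney knockout of both gates and no E14 kidney wild type. The labels name no batch, whether these samples were processed together was not tested, and these genes were chosen after their values were seen.

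Ribosomal protein genes made up 10 of the 236 falls, with small changes between -0.23 and -0.92, out of 66 tested (median -0.13). Of 11 further probes of those 10 genes, 6 had a positive change, and Rpl9 was called in opposite directions, with -0.92 at the brightest probe (adjusted p = 0.0226) and 0.85 at the other (adjusted p = 0.0301), so that its fall depends on the probe. None of the 10 was called in all 5 fits that each left out 1 sample.

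By annotation, the falls held 200 of the 15210 protein-coding genes tested and 21 of the 1039 long non-coding RNAs. They also held 9 pseudogenes, 3 of 96 plain and 6 of 188 transcribed ones. The rises held 94 protein-coding genes, 4 of 278 microRNAs and 3 long non-coding RNAs. Over all genes tested, 1.38% fell and 0.591% rose, and whether any class differed from that was not tested.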
